A study of Mus musculus with 6 samples.

Results

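The major urinary proteins are small lipocalins, barrel-shaped carriers of hydrophobic molecules, that mouse hepatocytes secrete into the blood and that pass through the kidney into urine. There they bind volatile pheromones and release them slowly, and some act as signals themselves. In mouse liver they are expressed more in males than in females, and their transcription depends on pulses of growth hormone acting through STAT5, with further input from androgen, thyroid hormone and glucocorticoid. Described here are 10 genes of this family, Mup1, Mup2, Mup3, Mup7, Mup10, Mup11, Mup12, Mup17, Mup20 and Mup21, taken by their symbols from a table of 35970 gene symbols. The table holds 22 symbols of the form Mup and a number. The genes were selected on measured values of the same libraries, since their lower TPM in one group was known when the family was picked, so their levels and differences are given as a description, with no p-value for a single gene. How many of them passed in the fit over all genes is stated once, beside the share of all genes, and supports nothing.

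The livers of 6 mice were sampled, and polyadenylated RNA bound to ribosomes was sequenced as 1 library per mouse. All mice lacked Fah, an enzyme of tyrosine breakdown, carried a dCas9 allele (dCas9 is a Cas9 that cannot cut DNA) and had been kept on 7.5 µg/mL nitisinone, a drug that protects such livers. Each was injected through the tail vein with 10 µg of a transposon plasmid together with a virus, AAV8.TBG.PI.Cre.rBG, in which the hepatocyte promoter TBG drives Cre. The plasmid carried Fah, ribosomal protein L10a fused to GFP, and a guide RNA. The guide was non-targeting in 3 mice and directed at Neurl1b, a gene for an E3 ubiquitin ligase of Notch ligands, in the other 3 (CRISPR interference, CRISPRi). Nitisinone was then stopped, and 4 weeks later 400 mg of liver was used to pull down tagged ribosomes with an antibody to GFP. Only hepatocytes that had taken up the plasmid carry the tag. The labels give neither age nor sex.

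Levels are in TPM, a length-corrected share of each library that holds no read number, so the depth behind a level is unknown. The 6 libraries had between 17813 and 18680 symbols above 0. Neurl1b itself had 1.22, 0.897 and 0.688 TPM in the non-targeting mice and 0.295, 0.351 and 0.307 TPM in the CRISPRi mice. Hepatocyte markers, with a summed TPM of 57686 to 130237 per library, were far above cholangiocyte markers at 20.2 to 32.5, macrophage markers at 89.2 to 196 and lymphocyte markers at 1.20 to 3.18. Transcripts of the Y chromosome were present in every library, with 19.3 to 35.7 TPM for Eif2s3y and 11.3 to 19.1 TPM for Ddx3y. Non-targeting mice 1 and 2 each stood apart in some respect. Across the 10598 genes tested, log2 levels of non-targeting mouse 1 correlated at 0.982 to 0.987 with the CRISPRi libraries and at 0.965 and 0.974 with the other controls. Non-targeting mouse 2 had the lowest correlations with the CRISPRi libraries, 0.950 to 0.960, and alone was high in the acute phase genes Lcn2 (1445 TPM, against 126 to 149 in the other 5) and Orm2 (1245 against 117 to 168) and in the metallothionein gene Mt1 (10547 against 1077 to 2266), 3 genes named after their values were seen. The main results are therefore also given without non-targeting mouse 1 and, where it changes them, without non-targeting mouse 2.

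All 22 numbered Mup genes lie in 1 cluster on chromosome 4 (RefSeq annotation of GRCm38.p6), with Mup20, Mup3 and Mup21 as the last 3 in the order of their positions. Because the copies are so alike, reads can be assigned to one gene only where their sequence differs. Of the 31-base windows in the transcripts of each gene, 70.7% of those of Mup3 and 66.2% of those of Mup21 occur in no other gene symbol. The share was 38.1% for Mup20, 29.8% for Mup1 and 21.5% for Mup2, and 16.8% and 16.7% for Mup10 and Mup11. It was lowest for Mup17, Mup7 and Mup12, at 13.8%, 9.98% and 7.92%, and 88.3% of the windows of Mup12 are shared with Mup1. Of all windows in the 10 genes, 56.19% occur in these genes only, and of all windows in the 22 genes, 99.32% are found in Mup genes and Mup pseudogenes alone. The division of reads between copies therefore bears on single genes more than on the sum over the family.

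**Figure D1:**
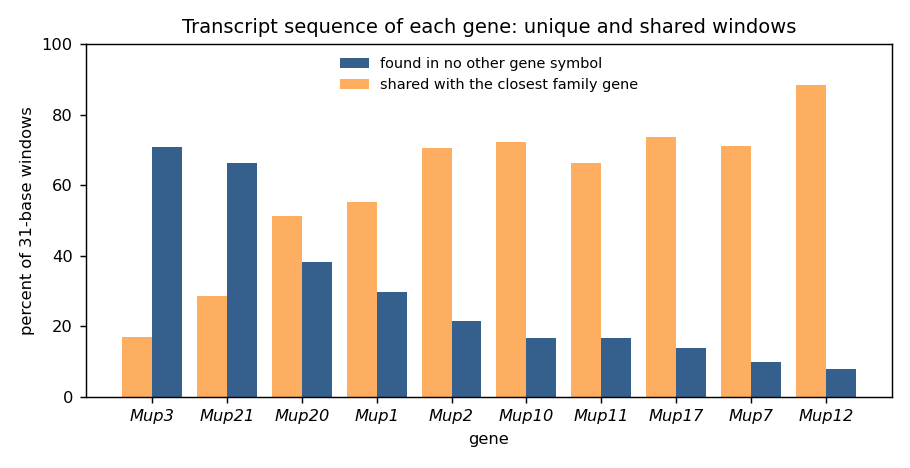
Percent of the 31-base windows in the transcripts of each gene (GENCODE vM21) that occur in no other gene symbol (blue) and that are shared with the closest family gene (orange). Mup3 and Mup21 are mostly unique, at 70.7% and 66.2%, whereas Mup12 is unique in 7.92% of its windows.

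RefSeq promoters matched 7 of the 10 genes (Mup2, Mup3, Mup7, Mup10, Mup11, Mup17 and Mup21). Of these, 4 are printed because they show a pair of near copies, Mup10 and Mup2, beside the pair at the end of the cluster, Mup3 and Mup21. Each line gives the 120 bases before the annotated start, on the minus strand of GRCm38.p6, with TATATAA in capitals.
Mup10: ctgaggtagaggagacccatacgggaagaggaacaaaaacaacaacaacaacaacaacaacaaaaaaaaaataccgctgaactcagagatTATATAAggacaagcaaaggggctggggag
Mup2: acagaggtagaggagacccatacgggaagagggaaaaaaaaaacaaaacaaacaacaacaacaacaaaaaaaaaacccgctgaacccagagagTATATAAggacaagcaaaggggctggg
Mup3: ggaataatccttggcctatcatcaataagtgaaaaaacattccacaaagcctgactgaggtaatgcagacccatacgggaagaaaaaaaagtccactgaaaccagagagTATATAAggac
Mup21: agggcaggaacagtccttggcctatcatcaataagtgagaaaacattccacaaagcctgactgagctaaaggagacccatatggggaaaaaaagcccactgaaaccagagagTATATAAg
These windows are chr4:60582156-60582275 for Mup10, chr4:60139857-60139976 for Mup2, chr4:62087318-62087437 for Mup3 and chr4:62150842-62150961 for Mup21. Over 250 bases upstream, Mup10 and Mup2 were 92.5% identical and Mup3 and Mup21 89.1% identical, against 56.4% between Mup10 and Mup3. These are shares of all columns of an end-to-end alignment, gaps included, so windows offset by their annotated starts score low. The alignment of Mup10 and Mup2 had 254 columns and that of Mup10 and Mup3 305. The window of Mup7 had the lowest values, 28.8% to 44.6% with the other 6, in alignments of 325 to 385 columns. Its last bases are the first of the 120-base stretch of Mup11, so the window is offset. These values therefore do not measure how far the sequence differs. The string TATATAA, a form of the TATA box, was found on either strand in 5 of the 7 windows of 250 bases and in 3.04% of 32851 RefSeq promoters, and in Mup10 its matches on the 2 strands overlap. Near copies such as Mup10 and Mup2 are counted separately among these 5. The first base of TATATAA lay 30 bases before the annotated start in Mup10 and 27 in Mup2, but 11 in Mup3 and 8 in Mup21. These distances depend on where each start is annotated. The window of Mup11 ends inside the stretch that runs into TATATAA in Mup2, and that of Mup7 ends further upstream. A window without the string may thus stop short of it. TTCNNNGAA, the core pattern bound by STAT5, was found in 0 of the 7 windows and in 7.02% of all promoters, which says only that these letters are not in this stretch.

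Summed over the 10 genes, the level was 744, 2507 and 4662 TPM in the non-targeting mice and 458, 671 and 218 TPM in the CRISPRi mice. The groups did not overlap, although non-targeting mouse 1 lay close above CRISPRi mouse 2 and well below the other controls. The means were 2638 ± 1962 and 449 ± 227 TPM (SD, n = 3 each), so the sum was 5.88-fold lower in the CRISPRi mice. It was 7.99-fold lower without non-targeting mouse 1, and the log2 ratio of -2.56 became -1.86 without non-targeting mouse 3, while leaving out mouse 2 of that group gave -2.59. In the shares of all transcripts, the 10 genes made up 0.251% and 0.466% of the libraries of non-targeting mice 2 and 3, 0.0744% of that of non-targeting mouse 1 and 0.0218% to 0.0671% of the CRISPRi libraries. The RNA was bound to ribosomes and pooled from all tagged cells of a liver sample. Fewer cells with a transcript, less of it per cell and a smaller part of it on ribosomes cannot be told apart.

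The 12 numbered Mup genes outside this group showed a wider gap, with 113, 3519 and 4735 TPM in the non-targeting mice and 183, 194 and 19.0 TPM in the CRISPRi mice. Here non-targeting mouse 1 had less than either CRISPRi mouse 1 or 2. The most abundant of them, Mup22, had 41.5, 2024 and 2479 TPM in the controls and 67.6, 82.1 and 2.81 TPM in the CRISPRi mice, and none of its 31-base windows is unique to it. Mup14 had 26, 1034 and 1614 TPM against 42.7, 45.9 and 5.08, and Mup16 had 8.74, 260 and 413 TPM against 13.1, 11.0 and 0.634. Mup9, Mup8, Mup18, Mup6, Mup19 and Mup15 had mean TPM of 74.8, 10.00, 5.70, 5.09, 1.56 and 1.04 over all libraries. Over all 22 genes the sums were 857, 6027 and 9397 TPM in the controls and 640, 865 and 237 TPM in the CRISPRi mice, a 9.34-fold difference of the means with groups that overlapped.

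**Figure D2:**
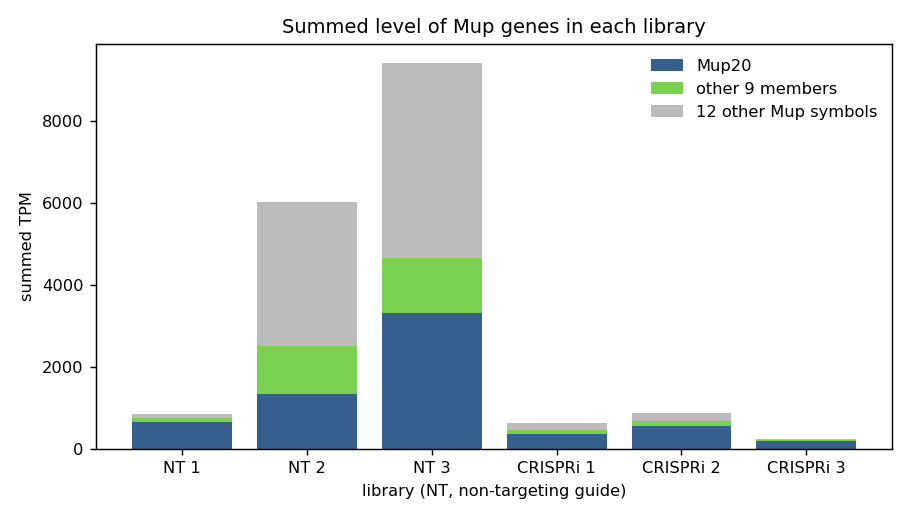
Summed TPM per library of Mup20 (blue), the other 9 genes described here (green) and the 12 remaining numbered Mup genes (grey), with NT for the non-targeting guide. Non-targeting mice 2 and 3 reach 6027 and 9397 TPM in all, while non-targeting mouse 1, at 857 TPM, lies between the CRISPRi mice.

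Across the 10 genes, non-targeting mice 2 and 3 were both above every CRISPRi mouse in 8 genes, all but Mup1 and Mup12. The level in non-targeting mouse 1 was inside the range of the CRISPRi mice for 7 genes and above it for 3, Mup3, Mup20 and Mup21. For 9 of the 10 genes its level was below 30% of the mean of the other controls. CRISPRi mouse 3 had the lowest level of all libraries for each of the 10 genes, and 2 of them, Mup7 and Mup12, are listed at 0 there. On the scale of log2(TPM + 1), the median log2 fold change of the 10 genes was -1.92, against 0.18 over all genes tested, and it was -2.85 when the first control was left out and -1.77 when the second was, where the medians of all genes were 0.29 and 0.13. Median-of-ratios scaling of the libraries moved the median of all genes to -0.0013 and that of the 10 genes to -2.13.

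All 10 genes had a mean TPM of at least 1 and were tested in the fit across all genes, and each also reached that mean in the CRISPRi libraries alone. Mup12 did not reach it in the non-targeting libraries alone. Its mean was 0.888 TPM there and 1.58 TPM in the CRISPRi mice, so it passed the filter through the CRISPRi group. In limma, 0 of the 10 passed an adjusted p of 0.05 and 6 had an unadjusted p below 0.05, all lower. In the lower direction 0% of all 10598 genes passed and 338 genes had an unadjusted p below 0.05. In either direction 0.0189% passed and 1408 genes had an unadjusted p below 0.05. The groups did not overlap, with lower levels in the CRISPRi mice, for 3 of the 10 genes and for 4.57% of all genes tested. A log2 fold change below -1 was found for 8 of the 10 and for 1.23% of all. Without non-targeting mouse 1, 8 of the 10 passed as lower, beside 2.24% of all genes, and 6 passed when median-of-ratios scaling was applied as well. Since the genes were singled out with this comparison known, nothing is read from these counts.

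**Figure D3:**
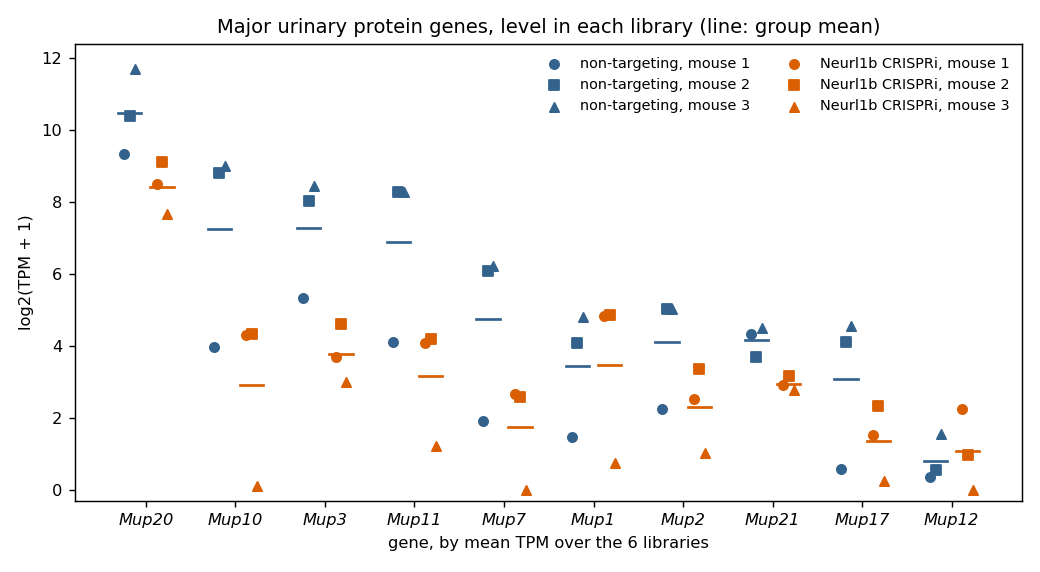
Level of each gene in each library as log2(TPM + 1), with genes in order of mean TPM, blue for non-targeting, orange for Neurl1b CRISPRi, symbols for mouse numbers and lines for group means. Non-targeting mouse 1 (blue circles) lies within or near the orange points in most genes, but among the controls for Mup21.

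By mean TPM over the 6 libraries, Mup20 came first at 1070, followed by Mup10 at 169, Mup3 at 115 and Mup11 at 111. Mup7 had 25.8, Mup1 16.9, Mup2 13.7, Mup21 12.2, Mup17 7.59 and Mup12 1.23. Mup20 was above Mup10, and Mup11 above Mup7, in 6 of 6 libraries. Mup10 was above Mup3 in only 3 of 6 and Mup3 above Mup11 in 4 of 6. From Mup7 to Mup17 each gene was above the next in 2 to 4 of 6 libraries, so the order among these 5 genes is within their spread.

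Mup20 encodes darcin, the male pheromone that attracts females and that they learn to associate with its owner. The controls had 645, 1343 and 3315 TPM of it and the CRISPRi mice 361, 555 and 202 TPM. The groups did not overlap, but the lowest control was near the highest CRISPRi mouse. The means were 1768 ± 1385 and 373 ± 177 TPM (SD, n = 3 each), 4.74-fold lower in the CRISPRi mice, with a log2 fold change of -2.05 (SE 0.57) that ranged from -2.62 to -1.44 when each mouse was left out. Among all symbols Mup20 ranked 35th and 124th by level in non-targeting mice 3 and 2, and between 290th and 728th in the other libraries. It held 53.5% and 71.1% of the 10-gene sum in non-targeting mice 2 and 3, and 78.9% to 92.6% in the other 4 libraries.

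Mup3, a diverged member beside Mup20 in the cluster, had 39.5, 259 and 349 TPM in the non-targeting mice and 12, 23.5 and 7.03 TPM in the CRISPRi mice. The groups did not overlap, and non-targeting mouse 1 was at 13% of the mean of the other controls. The mean was 216 ± 159 against 14.2 ± 8.45 TPM, 15.2-fold lower, and 21.4-fold lower without non-targeting mouse 1. Its log2 fold change was -3.50 (SE 0.76). The 2 main transcripts gave the same picture, with 20.7, 140 and 193 TPM against 6.17, 11.7 and 3.48 for the first and 17.3, 109 and 139 TPM against 5.38, 11.0 and 3.55 for the second.

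Mup21, the last gene of the cluster, had the narrowest spread. The controls had 19.1, 11.9 and 21.5 TPM and the CRISPRi mice 6.54, 8.04 and 5.85 TPM. Here non-targeting mouse 1 was among the other controls, at 114% of their mean, in contrast to 27.7% for Mup20 and 13% for Mup3. The mean was 17.5 ± 5.01 against 6.81 ± 1.12 TPM, 2.57-fold lower, with a log2 fold change of -1.22 (SE 0.24) that stayed between -1.46 and -1.06 when each mouse was left out. Mup20, Mup3 and Mup21, whose groups did not overlap, are also the 3 of the 10 genes with the largest share of unique windows. Outside the 10, Mup6 had a larger share, 76.2%, but its groups overlapped, with a log2 fold change of -0.43. A link between unique windows and separation of the groups was not tested.

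Mup10, Mup11, Mup7, Mup2 and Mup17 each share 66.4% to 73.6% of their transcript windows with their closest family gene, and had a common pattern. Mup10 had 14.8, 452 and 511 TPM in the controls and 18.9, 19.3 and 0.0794 TPM in the CRISPRi mice, so that non-targeting mouse 1 was below 2 of the 3 CRISPRi mice. The mean TPM was 25.5-fold lower in the CRISPRi mice, with a log2 fold change of -4.35 (SE 1.5) that ranged from -5.99 without non-targeting mouse 1 to -2.94 without CRISPRi mouse 3. Mup11 had 16.2, 310 and 309 TPM against 15.8, 17.2 and 1.35, an 18.4-fold difference of means. In each of these genes the control mean rests on non-targeting mice 2 and 3.

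Mup7 had 2.78, 67.0 and 74.4 TPM in the controls against 5.37, 4.97 and a listed 0 in the CRISPRi mice. Mup2 had 3.72, 31.7 and 31.8 TPM against 4.76, 9.22 and 1.02, with the mean 4.48-fold lower in the CRISPRi mice. Mup17 had 0.504, 16.4 and 22.5 TPM against 1.91, 4.05 and 0.188, with the mean 6.41-fold lower. All 3 overlapped between the groups through non-targeting mouse 1, and their log2 fold changes were -3.0 (SE 1.16), -1.80 (SE 0.81) and -1.71 (SE 0.97). Without that mouse they were -4.41, -2.73 and -2.96.

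Mup1 and Mup12, which share much of their sequence, did not follow this pattern. Mup1, a protein also described in blood as a regulator of glucose and lipid metabolism, had 1.76, 16.1 and 27.0 TPM in the controls and 27.4, 28.3 and 0.666 TPM in the CRISPRi mice. Its log2 fold change was 0.02 (SE 1.19), and it took either sign when single mice were left out, from -0.97 without non-targeting mouse 1 to 1.39 without CRISPRi mouse 3. Its transcripts differed: ENSMUST00000103012.10 had 0.503, 0.842 and 7.14 TPM against 23.3, 23.4 and 0.187, whereas ENSMUST00000135953.2 had 0.412, 13.6 and 14.5 TPM against 1.96, 1.08 and 0.479. Mup12 was low throughout, with 0.275, 0.459 and 1.93 TPM in the controls and 3.76, 0.972 and a listed 0 in the CRISPRi mice, and a log2 fold change of 0.26 (SE 0.54). With a pseudocount of 0.1, both log2 fold changes were below 0, at -0.15 for Mup1 and -0.013 for Mup12.

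**Figure D4:**
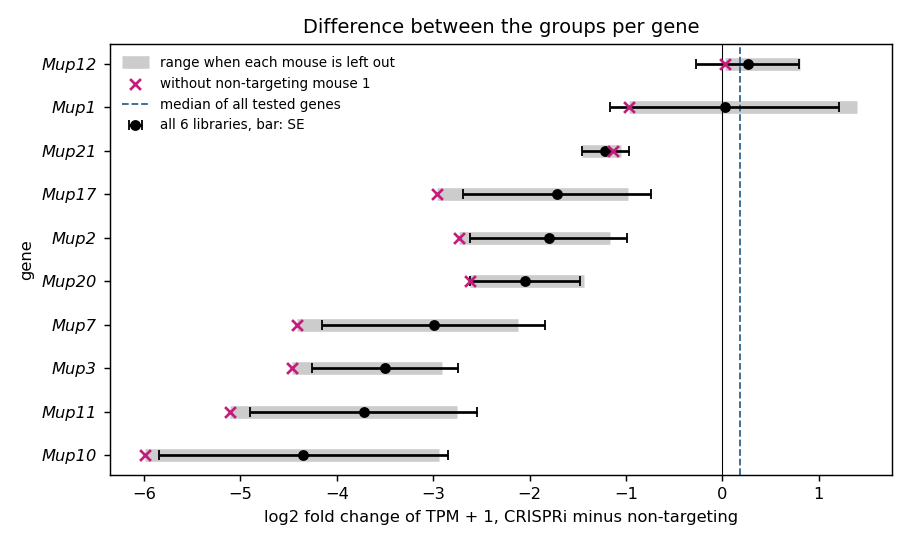
Log2 fold change of TPM + 1 per gene, CRISPRi minus non-targeting (black point with SE), its range when each mouse is left out (grey), its value without non-targeting mouse 1 (cross) and the median of all tested genes (dashed line, 0.18). Mup21 has the shortest range, from -1.46 to -1.06, and Mup10 the lowest value, -4.35.

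The make-up of the sum differed between libraries. Leaving out Mup20, Mup10 held 38.8% and 37.9% of the summed TPM of the other 9 genes in non-targeting mice 2 and 3, 15.0% in non-targeting mouse 1, 19.6% and 16.7% in CRISPRi mice 1 and 2 and 0.490% in CRISPRi mouse 3. Mup1 held 28.4% and 24.5% in CRISPRi mice 1 and 2 and 1.38% to 4.12% in the other 4 libraries. Mup21 held 36.1% in CRISPRi mouse 3 and 19.4% in non-targeting mouse 1, but only 1.02% and 1.60% in non-targeting mice 2 and 3. In this make-up non-targeting mouse 1 was unlike CRISPRi mice 1 and 2 in its shares of Mup3 (40.0% against 12.5% and 20.3%) and Mup1 (1.78%). Without Mup20, the sum of the other 9 genes was 98.7, 1165 and 1347 TPM in the controls and 96.5, 116 and 16.2 TPM in the CRISPRi mice, an 11.4-fold difference of the means with groups that overlapped.

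**Figure D5:**
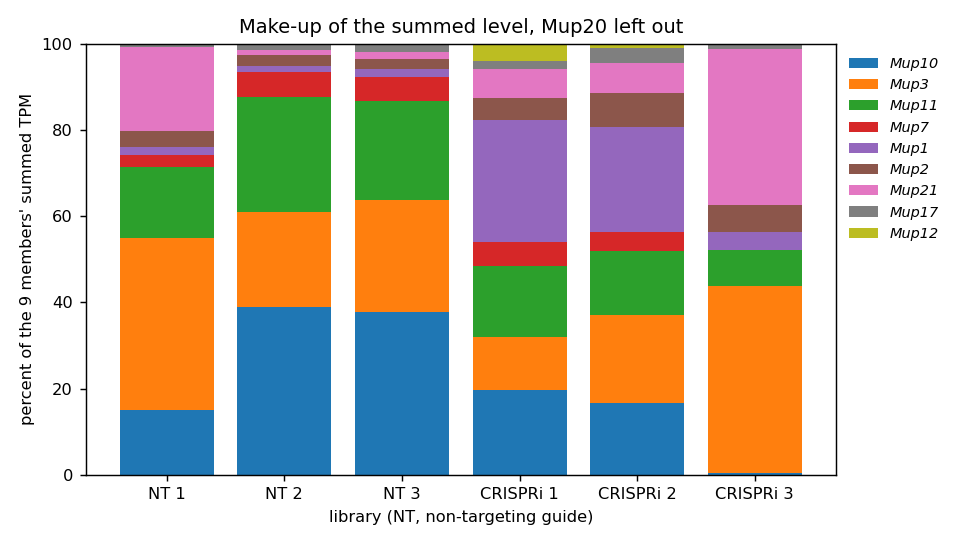
Percent of the summed TPM of 9 genes (Mup20 left out) held by each gene in each library, with NT for the non-targeting guide. Non-targeting mice 2 and 3 are alike, with 38.8% and 37.9% Mup10, CRISPRi mice 1 and 2 hold 28.4% and 24.5% Mup1, and CRISPRi mouse 3 holds 36.1% Mup21.

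The growth hormone pathway, on which the family depends, was measured through 21 genes, of which 20 were tested. In limma 0 of 20 passed an adjusted p of 0.05, while at an unadjusted p below 0.05 there were 4 lower and 1 higher. Such a p was found for 1408 of all 10598 genes, 338 of them lower. The median log2 fold change was 0.15, near the 0.18 of all genes. Of the 20 genes 8 lay below 0 and 12 above, where 26% of all genes lay below 0 and 74% above. The growth hormone receptor gene Ghr had 65.9, 110 and 67.6 TPM in the controls and 54.5, 57.7 and 48.9 TPM in the CRISPRi mice (log2 fold change -0.55, limma adjusted p = 0.355). The kinase gene Jak2 had a log2 fold change of 0.30 (limma adjusted p = 0.446), and the transcription factor genes Stat5a and Stat5b had 0.02 and 0.26 (limma adjusted p = 0.967 and 0.537). Socs2, a feedback inhibitor induced by the hormone, had 3.94, 6.68 and 6.45 TPM against 2.68, 5.72 and 8.64. At the adjusted threshold the levels of these signalling genes were thus not shown to differ between the groups. The groups nevertheless did not overlap for Ghr, lower in the CRISPRi mice, and for Jak2, higher in them.

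Igf1 and Igfals, secreted products of the same pathway, were like Ghr lower in every CRISPRi mouse than in any control, without passing the test. Of the 20 genes tested, 5 were lower and 3 higher without overlap of the groups, beside 4.57% and 12.5% of all genes. Igf1, the growth factor made by liver under growth hormone, had 720, 899 and 887 TPM against 547, 697 and 385 (log2 fold change -0.65, limma adjusted p = 0.344). Igfals, whose product carries it in blood, had 12.6, 19.5 and 12.5 TPM against 7.63, 9.14 and 6.06 (-0.87, limma adjusted p = 0.315). Onecut1, a liver transcription factor gene, had a log2 fold change of -0.70 (limma adjusted p = 0.323). Igfbp1, a binding protein gene that insulin represses, had 224, 37.6 and 71.4 TPM against 308, 296 and 349 (1.89, limma adjusted p = 0.323), and non-targeting mouse 1 was again the control nearest the CRISPRi mice. Without that mouse Igfals and Onecut1 passed as lower and Igfbp1 and Stat5b as higher (limma adjusted p = 0.037, 0.017, 0.017 and 0.044), when 2.24% of all genes passed as lower and 23.1% as higher.

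Other genes known to be higher in male liver lay on both sides of 0. Of 20 such genes 14 were tested, of which 0 reached the limma threshold and 1 had an unadjusted p below 0.05. Such a p was found for 1408 of all 10598 genes. Of the 14 genes 8 lay below 0, beside 26% of all genes. The median log2 fold change was -0.15, against 0.18 over all genes. When the first control was left out the median was -0.14 and 1 gene of 14, C8a, passed as lower, beside 2.24% of all genes. The complement gene C8a had 18.7, 153 and 43.4 TPM against 5.61, 10.2 and 3.11 (log2 fold change -2.93, limma adjusted p = 0.310). Serpina1e, a protease inhibitor gene with near-identical copies, had 245 TPM in non-targeting mouse 2 and at most 2.53 TPM in any other library, and its log2 fold change of -2.89 was -0.79 without that mouse. Selenbp2 and Cib3 had log2 fold changes of -0.58 and 0.82. The male-biased P450 genes Cyp4a12a and Cyp2d9, named after their values were seen, had 25.7, 4.94 and 20.2 TPM against 60.3, 42.0 and 4.96, and 301, 155 and 275 TPM against 284, 296 and 293. Hsd3b5, Elovl3 and Slco1a1, chosen in the same way, were at or below 0.394 TPM in all libraries.

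Genes known to be higher in female liver had the lowest median of the lists fitted. Of 22 such genes 17 were tested, and 12 had a log2 fold change below 0, beside 26% of all genes, with a median of -1.0. None reached the limma threshold (0 of 17), and 7 were lower at an unadjusted p below 0.05, as were 338 of all 10598 genes. The sulfotransferase gene Sult2a1 had 70.9, 134 and 105 TPM against 15.8, 16.6 and 41.4 (log2 fold change -2.12, limma adjusted p = 0.247), and Sult2a5 had -1.81 (limma adjusted p = 0.216). Cyp3a41a and Cyp2c40, members of P450 families with close copies, had -2.66 and -1.58 (limma adjusted p = 0.310 and 0.269). Without non-targeting mouse 1, 7 of 17 passed, all lower, beside 2.24% of all genes, and without non-targeting mouse 2 the median was -0.65 and 0 passed.

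Other carriers of small molecules included Fabp1, the fatty acid binding protein of liver, with 4184, 7983 and 8869 TPM against 2348, 2365 and 1186 (log2 fold change -1.83, limma adjusted p = 0.259). In this list of 11 tested genes 0 passed in limma, 3 lower and 1 higher had an unadjusted p below 0.05, and the median was -0.59. With the first control left out, 3 passed as lower and the median was -0.80, and without non-targeting mouse 2 it was -0.24. The lipocalin gene C8g had a log2 fold change of -0.59, and Orm3 and Ttr had 0.39 and -0.52. Among 30 abundant secreted hepatocyte proteins 25 lay below 0, beside 26% of all genes, and the median was -0.45. In limma 0 passed, and 10 lower and 1 higher had an unadjusted p below 0.05. Over all 10598 genes 1408 did, 338 of them lower. Without non-targeting mouse 1, 6 passed as lower and the median was -0.61, and without non-targeting mouse 2 it was -0.21, with 20 of 30 below 0. Serpina1c, Serpina1d, Serpina3k and Serpina1a, all protease inhibitor genes, had log2 fold changes of -1.72, -0.82, -0.63 and -1.35. Albumin, Alb, had 16974, 31253 and 12742 TPM against 11518, 12521 and 16044. The ratio of the 10-gene sum to the hepatocyte marker sum had a log2 ratio of -2.12 between the groups. That marker sum includes Alb, and was 130237 TPM in non-targeting mouse 2 and at most 78624 TPM in any other library.

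Among 23 tested hepatocyte transcription factor genes 0 passed in limma, 1 lower and 1 higher had an unadjusted p below 0.05, and the median log2 fold change was 0.09. Leaving out non-targeting mouse 1, 1 of 23 passed as lower and 2 as higher, beside 2.24% and 23.1% of all genes. Besides Onecut1, the smallest p belonged to Cebpd, Nr1i2 and Foxa3, with log2 fold changes of 0.58, 0.49 and -0.40. Markers of other liver cells were at low levels, and the counts of markers above 0 are to be read against the 74% of all genes. The summed TPM of 11 stellate cell and fibroblast markers was 14.2 to 29.4 in the controls and 35.4 to 48.2 in the CRISPRi mice, so these sums did not overlap. Of its markers 6 of 6 tested lay above 0, 0 passed in limma and 4 were higher at an unadjusted p below 0.05. Of all 10598 genes, 1408 had such a p, 338 of them lower. Without non-targeting mouse 1, 3 of 7 tested markers passed as higher, where 23.1% of all genes did. Of the 11 markers, 0 were at a listed 0 in all libraries. The sum of 13 macrophage markers was 89.2 to 164 and 133 to 196, overlapping, with 10 of 10 above 0. At an unadjusted p below 0.05, 3 of these 10 were higher and 0 passed in limma. The groups did not overlap for 3 of them, all higher, beside 12.5% of all genes. Without non-targeting mouse 1, 1 of 11 tested passed as higher, again beside 23.1% of all genes. The sum of 10 endothelial markers was 18.8 to 25.2 and 20.9 to 29.9, also overlapping, with 4 of 5 above 0. At an unadjusted p below 0.05, 2 of these 5 were higher and 0 passed in limma. Without overlap of the groups 3 were higher and 1 lower, beside 12.5% and 4.57% of all genes. Erythroid markers, which non-targeting mouse 2 had at 3880 TPM, were at 490 to 1567 TPM in the other 5 libraries. The part of these cells in the Mup difference was not tested.

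The genes whose pattern was most like that of the 10-gene sum were sought among 10018 tested genes, by Pearson correlation of log2 levels over the 6 libraries. They were Fxyd1, Tm2d3, Ces3b, S100a13 and Cyp2c40, with correlations of 0.989, 0.986, 0.978, 0.977 and 0.973. With 6 libraries and so many genes these values only describe likeness. Fxyd1, a regulator of the sodium pump, had 798, 921 and 989 TPM in the controls and 707, 745 and 668 TPM in the CRISPRi mice. Its difference of means, 1.28-fold, was far smaller than that of the Mup genes. Ces3b, a carboxylesterase gene, had 5.16, 8.20 and 11.6 TPM against 3.99, 3.74 and 1.66.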

How the data were processed

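Ribosome-bound RNA from 6 mouse livers was analysed, 3 per group, with groups and mouse numbers taken from the sample titles. The values deposited are TPM for 117486 transcripts, which the authors made with kallisto for genome build mm39, per the submitters' processing notes. Its version, transcript set and filters were not stated in the labels. Reads that match several near copies are shared out by estimation, so single Mup genes are uncertain.

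Transcripts were summed by symbol. A fit with limma 3.58.1 (R 4.3.3) used log2(TPM + 1) of the 10598 genes whose mean TPM reached 1, without covariates and with a trended prior. Tests were two-sided, with a threshold of 0.05 on p adjusted by Benjamini-Hochberg. For low genes the pseudocount makes log2 fold changes too small. Values called "-fold" are ratios of mean TPM, and SE come from limma. The fit was tested on simulated data.

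The genes described and the gene lists were chosen with earlier results of these data known. Named are all 10 genes, other numbered Mup genes whose mean TPM reached 1, Neurl1b, sex-linked genes, up to 4 genes per list with the smallest p, fixed growth hormone pathway genes (Ghr, Jak2, Stat5a, Stat5b, Socs2, Igf1) and the 5 genes most like the sum. Alternatives covered the pseudocount, the filter, scaling, the prior, the replicate block, single transcripts and each mouse left out.

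Windows of 31 bases were compared in the GENCODE vM21 transcripts (GRCm38), which hold 99.04% of the deposited transcript identifiers. Promoter sequences are RefSeq's, of build GRCm38.p6, and not of the build of the table.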

Additional observations from a re-analysis of the deposited data

How the results depend on the processing

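The number of genes past the threshold, 2 in limma with all libraries, was 0 with a pseudocount of 5, without the filter on low values and with quantile normalization, and 1 with a minimum mean TPM of 5. At an unadjusted p below 0.05 those first 3 settings gave 1404, 2132 and 1403 genes. It ranged from 0 to 2673 when each mouse was left out, from 0 when the third control was dropped (920 genes at an unadjusted p below 0.05) to the highest count when the first was, and was 480 without the first control under median-of-ratios scaling, a combination chosen after seeing the data, as was the sum without Mup20. The cause was not tested.

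The log2 ratio of the 10-gene sum stayed below 0 in every alternative run, from -1.86 to -3.0 when each mouse was left out, -2.89 with median-of-ratios scaling, -2.60 without the 10 most abundant genes, -3.22 over all numbered Mup genes and -3.52 without Mup20. Of the single genes, Mup1 changed sign with a pseudocount of 0.1 (-0.15), median-of-ratios scaling (-0.19) and quantile normalization (-0.15), and ranged from -0.97 to 1.39 when each mouse was left out (-0.97, -0.65 and -0.67 without non-targeting mouse 1, CRISPRi mouse 1 or CRISPRi mouse 2). Mup12 did so with a pseudocount of 0.1 (-0.013), and could not be fitted without CRISPRi mouse 1, where its mean fell under the filter. The other 112 values of single genes kept their sign.

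No label says that mouse numbers pair the mice. Across genes, deviations of same-numbered mice from their group means correlated at 0.061, -0.096 and -0.28. Not every mouse correlated best with its own number. Deviations are bound to balance within each group, so these values cannot decide whether mice were paired. With the number as a replicate block 2 genes passed, and no Mup gene did. TPM keep no depth, so the precision of levels near 0 is unknown.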

Other observations

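Mup pseudogenes were measured as well. Summed over 27 symbols they had 2.43, 6.87 and 15.0 TPM in the non-targeting mice and 3.40, 4.45 and 1.02 TPM in the CRISPRi mice, so that non-targeting mouse 1 had less than either CRISPRi mouse 1 or 2. Mup-ps19, which shares 94.1% of its 31-base windows with Mup20, had 0.641, 1.28 and 3.74 TPM in the controls and 0.580 TPM in CRISPRi mouse 2, and is listed at 0 in the other CRISPRi mice.

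Zonation and glucocorticoid lists gave no gene past the threshold in limma with all libraries. Without non-targeting mouse 1, 2 periportal genes passed as higher, 1 pericentral gene as lower and 2 as higher, and 3 glucocorticoid-responsive genes as higher, when 2.24% of all genes passed as lower and 23.1% as higher. Of 15 periportal genes 2 had an unadjusted p below 0.05, both lower. Cyp2f2, a P450 gene of periportal hepatocytes, had 174, 311 and 289 TPM in the controls and 166, 143 and 59.9 TPM in the CRISPRi mice. Of 14 pericentral genes 1 had an unadjusted p below 0.05, Slc1a2, a glutamate transporter gene with 3.77, 21.8 and 8.27 TPM against 2.35, 4.44 and 1.75. Among 15 glucocorticoid-responsive genes 3 lower and 2 higher had an unadjusted p below 0.05. Such a p was found for 1408 of all 10598 genes, 338 of them lower. Dusp1, a phosphatase gene, had 8.35, 3.71 and 4.35 TPM against 12.2, 10.0 and 13.2, and Klf9 had 40.2, 32.5 and 40.6 TPM against 27.3, 27.1 and 30.6.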
